A study of Danio rerio with 4 samples.

Results

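The genes described here encode splicing factors and heterogeneous nuclear ribonucleoproteins (hnRNPs). They were chosen by symbol: names that start with *srsf*, *sf3a*, *sf3b*, *snrp*, *hnrnp* or *prpf*, listed at both stages, that reached 20 reads over both libraries at 36hpf or an FPKM of 1 in a library at 72hpf. FPKM is a level scaled by transcript length and by the number of mapped fragments. In all, 70 symbols met the rule, among 31388 rows of the 36hpf table and 31950 rows of the 72hpf table. Of these, 68 stand on 1 row in each table and carry the values below, while *srsf3a* and *hnrnpa0l* stand on several rows and are described on their own. All 68 passed the minimum at both stages, and 0 passed it at 72hpf in 1 library only. The rule used symbols and a minimum level, not a difference between genotypes.

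RNA came from whole dissected zebrafish eyes of the TL strain, at 36 and 72 hours post-fertilization, with 1 sample of *tet2*-/-;*tet3*-/- mutants and 1 sample of sibling controls at each stage, 4 samples in all. At each stage 100 eyes were dissected and pooled. Both mutant alleles (*au59* of *tet2* and *au60* of *tet3*) are frameshifts in genes for dioxygenases that oxidise methylated cytosine in DNA. The siblings were phenotypically wild-type embryos from crosses of double heterozygotes, so a pool of siblings can hold several genotypes. With 1 sample per genotype and stage, no difference between genotypes could be tested, and every difference below is a description of these libraries.

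Splicing removes introns from pre-mRNA. The small nuclear ribonucleoproteins (snRNPs) U1, U2, U4, U5 and U6 recognise the splice sites and assemble into the spliceosome, each of the first 4 carrying a ring of Sm proteins. SR proteins (symbols *srsf*) bind exons and mostly recruit the spliceosome, while hnRNPs coat nascent transcripts and often act against SR proteins. These genes are active in nearly every cell, and human patients with changes in some *PRPF* genes develop retinitis pigmentosa, a degeneration of photoreceptors.

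The 36hpf values rest on 106912677 reads in mutant eyes and 88875538 reads in sibling eyes, each the sum of 2 counts, which may be repeat runs or separate libraries. At 72hpf the depth is unknown. The steps between low FPKM values put 1 read at 1.34 times as much in the mutant as in the sibling library. That would make the sibling library the deeper one. The value comes from the most common ratio over 821 genes, in a bin that held 11.8% of them, so it is uncertain. *tet2* was not lower in the libraries labelled mutant: it had 12459 reads in mutant and 9646 reads in sibling eyes at 36hpf, and 34.1 FPKM in mutant against 33.6 FPKM in sibling eyes at 72hpf. *tet3* had 8611 and 8381 reads, then 37.9 and 55.9 FPKM, in the libraries labelled mutant and sibling. The counts take in transcripts of the frameshift alleles too, so these levels do not settle the labels, and the groups are called mutant-labelled and sibling-labelled from here on. Marker lists of other tissues also moved between the libraries: lens genes had a median log2 change of -2.50 at 36hpf and -0.79 at 72hpf, photoreceptor genes -1.11 and -4.15 (23 of 23 below 0 at 72hpf), epidermis genes 1.92 and 0.57, skeletal muscle genes -0.34 and 2.03, cardiac muscle genes 0.88 and 2.18, and erythrocyte genes 0.64 and 1.40. At 36hpf the photoreceptor, skeletal muscle and cardiac muscle medians rest on many genes with few reads and are less certain. Examples are *gnat1* (26 reads in mutant and 23 in sibling eyes), *tnnc2* (18 and 26) and *myh6* (29 and 5). Hatching gland genes, outside the eye, had the widest shift at 36hpf, with a median of 7.24 over 5 genes. That list was split, with 3 of the 5 at 2 or more and *cd63* and *xbp1* at 0.33 and 0.32. In RNA from whole eyes, fewer cells of a type and less RNA per cell cannot be told apart.

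The splicing and hnRNP genes were among the more abundant genes of the eye. At 72hpf their median level was 62.6 FPKM in mutant-labelled and 47.1 FPKM in sibling-labelled eyes, against 6.66 and 7.17 FPKM over all 17307 genes kept. At least 10 FPKM was reached in both libraries by 65 of the 68 (95.6%), compared with 33.5% of all genes kept. The highest level was that of *hnrnpaba*, an hnRNP of the A/B type, at 646 FPKM in mutant-labelled and 439 FPKM in sibling-labelled eyes. The lowest was that of *hnrnph3*, at 1.71 FPKM in mutant-labelled and 3.85 FPKM in sibling-labelled eyes. Together the 70 symbols, with every row of *srsf3a* and *hnrnpa0l*, made up 1.33% of all FPKM in mutant-labelled eyes and 1.07% in sibling-labelled eyes. Their summed FPKM, not taken as a share, was 1.30 times higher in mutant-labelled eyes. There the total FPKM of all genes was also higher, at 552926 against 529630 in sibling-labelled eyes. At 36hpf the 70 symbols made up 2.05% of the reads in mutant-labelled and 2.23% in sibling-labelled eyes, so the order of the libraries was the other way round.

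At 72hpf the genes were mostly higher in mutant-labelled eyes, each by a modest amount. The difference was taken as log2(FPKM + 1) in mutant-labelled minus sibling-labelled eyes, which understates the change of low genes. It was above 0 for 61 of the 68 genes (89.7%), where 51.9% of all 17307 genes kept were above 0, and it was below 0 for 7, where 48.1% of all genes were. The median difference was 0.30, with quartiles of 0.21 and 0.48, compared with a median of 0.02 and quartiles of -0.38 and 0.34 over all genes. A difference of 0.5 or more was reached by 15 genes (22.1%, background 16.5%) and of -0.5 or less by 2 genes (2.94%, background 20.3%), and none reached 1 in either direction, where 3.65% and 9.02% of all genes did. The exception under other settings was *hnrnph3*, at -1.13 with 0.1 FPKM added and -1.02 as transcripts scaled to a fixed total (TPM). At the smaller limit of 0.25, 43 genes were past it upwards (63.2%, background 31.6%) and 3 downwards (4.41%, background 31.4%). The members thus shared a sign more than a large change. Among all 7681 genes with at least 10 FPKM in either library, 49.9% were above 0.

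At 36hpf most of the same genes were slightly lower in mutant-labelled eyes. Here the log2 fold-change is that of summed reads scaled by trimmed mean of M-values (TMM), and it was below 0 for 53 of the 68 (77.9%), where 49.0% of all 21876 genes kept were below 0. The other 15 were above 0, against 51.0% of all genes. The median was -0.11, with quartiles of -0.26 and -0.03, while all genes had a median of 0.01 and quartiles of -0.28 and 0.37. A fold-change of -0.5 or less was reached by 1 gene (1.47%, background 14.8%) and of 0.5 or more by 0 genes (background 19.9%). None reached 1 in either direction, where 8.9% of all genes were higher and 6.15% lower by that much. At the smaller limit of -0.25 or less there were 19 genes (27.9%, background 26.9%), and at 0.25 or more there were 2 (2.94%, background 31.8%). Most of the fold-changes were thus small and negative. Among all 11833 genes with at least 1000 reads, 48.2% were above 0.

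**Figure D1:**
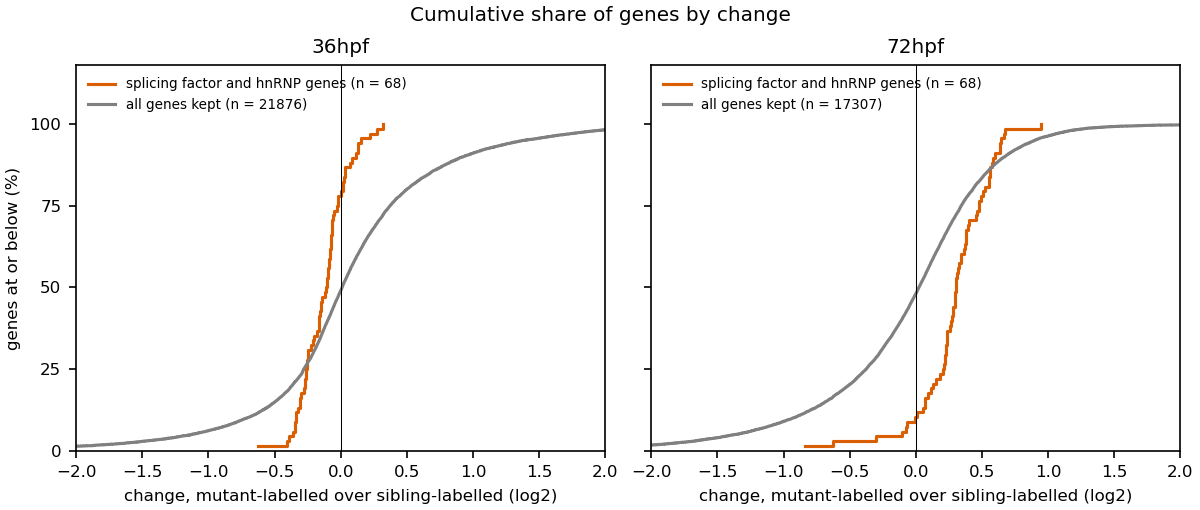
Cumulative share of genes (y axis, percent at or below) by log2 change in mutant-labelled over sibling-labelled eyes (x axis), at 36hpf on the left and 72hpf on the right. The orange step line (68 splicing factor and hnRNP genes) crosses 50% at -0.11 at 36hpf and at 0.30 at 72hpf, and the grey line (all genes kept) crosses it at 0.01 and 0.02.

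Each count was also expressed per 1000000 reads of its TMM-scaled total (CPM). The 2 counts behind each 36hpf value give a view of the spread, although they may come from 1 library. Both scaled counts of mutant-labelled eyes lay below both of sibling-labelled eyes for 50 of the 68 genes (73.5%, background 39.4%), and above both for 11 (16.2%, background 41.1%). The fold-changes from the larger and from the smaller counts alone had the same sign for 63 genes, and they were a median of 0.02 apart, with the widest gap of 0.12 at *snrpd3*. The exact (Clopper-Pearson) 95% interval, which covers counting error only, lay wholly below 0 for 49 genes (background 33.1%) and wholly above 0 for 10 (background 34.5%). Counting error was small for most, since 66 of the 68 had at least 1000 reads over both libraries. Of the 21876 genes behind the interval background, 11833 had that many, and fewer reads give wider intervals. The background shares in this paragraph are thus not matched for read depth. How far depth accounts for their distance from the shares of the 68 genes was not tested.

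**Figure D2:**
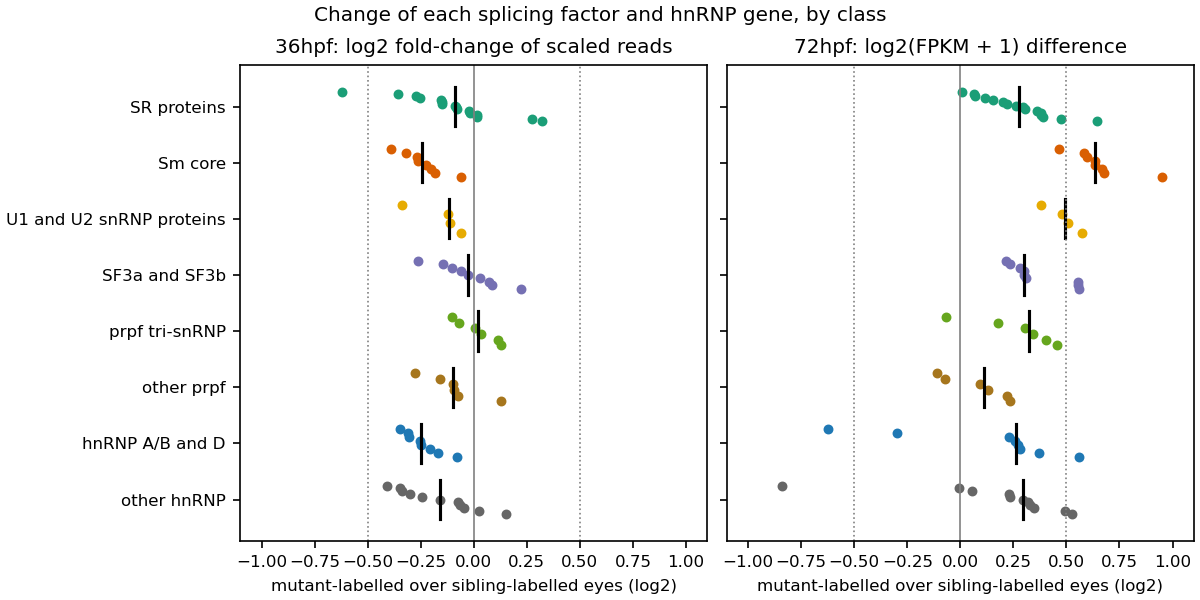
Log2 change of each gene in mutant-labelled over sibling-labelled eyes (x axis) by class (rows), at 36hpf from scaled reads on the left and at 72hpf from log2(FPKM + 1) on the right. Each point is 1 gene, black bars are class medians, and dotted lines mark -0.5 and 0.5. All 8 Sm core genes lie left of 0 at 36hpf and between 0.47 and 0.95 at 72hpf.

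The Sm core genes, which encode the ring of proteins that is loaded onto snRNAs in the cytoplasm, were the class with the highest median at 72hpf. All 8 were higher in mutant-labelled eyes at that stage (background 51.9%), with a median of 0.64 and 7 of 8 at 0.5 or more (background 16.5%). Their summed level was 727 FPKM in mutant-labelled and 456 FPKM in sibling-labelled eyes, 1.60 times higher. At 36hpf none of them was higher in mutant-labelled eyes (background 51.0%), and their median was -0.24. *snrpd2* had 101 FPKM in mutant-labelled and 51.7 FPKM in sibling-labelled eyes, and its difference of 0.95 was the highest of the 68 genes. At 36hpf its scaled counts were 179 and 178 CPM in mutant-labelled eyes, against 223 and 223 CPM in sibling-labelled eyes. With both pairs of counts apart, its log2 fold-change was -0.32 (95% interval of -0.35 to -0.29). *snrpg* had 122 FPKM in mutant-labelled and 76.2 FPKM in sibling-labelled eyes at 72hpf, a difference of 0.67. Its scaled counts at 36hpf were 185 and 188 CPM in mutant-labelled eyes, against 244 and 242 CPM in sibling-labelled eyes, giving the lowest fold-change of the class at -0.39. Thus the gene that was lowest in its class at 36hpf was among the 3 highest at 72hpf.

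The other Sm genes showed the same reversal, lower in mutant-labelled eyes at 36hpf and higher at 72hpf. *snrpb*, the most abundant Sm gene at 72hpf, had 169 FPKM in mutant-labelled and 109 FPKM in sibling-labelled eyes (difference 0.63), with a fold-change of -0.06 at 36hpf from 57138 and 48663 reads. *snrpd1* had 87.5 and 54.4 FPKM in mutant-labelled and sibling-labelled eyes (0.68), *snrpe* had 82.1 and 52.5 FPKM (0.64) and *snrpf* had 83.5 and 54.9 FPKM (0.60). Their fold-changes at 36hpf were -0.18, -0.26 and -0.23. *snrpd3* and *snrpd3l*, a pair of D3-type genes, had differences of 0.58 and 0.47 at 72hpf, the value of *snrpd3l* being the lowest of the class. The locus of *snrpd3* in the 72hpf table spans 10 gene IDs and does not give its own boundaries. Against the other 60 genes, whose median was 0.29 at 72hpf, 11 reached the lowest Sm value and 1 (*srsf10b*) reached the Sm median, and 7 of the 10 highest differences belonged to Sm genes. No test of that contrast between classes was possible with 1 sample per genotype.

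**Figure D3:**
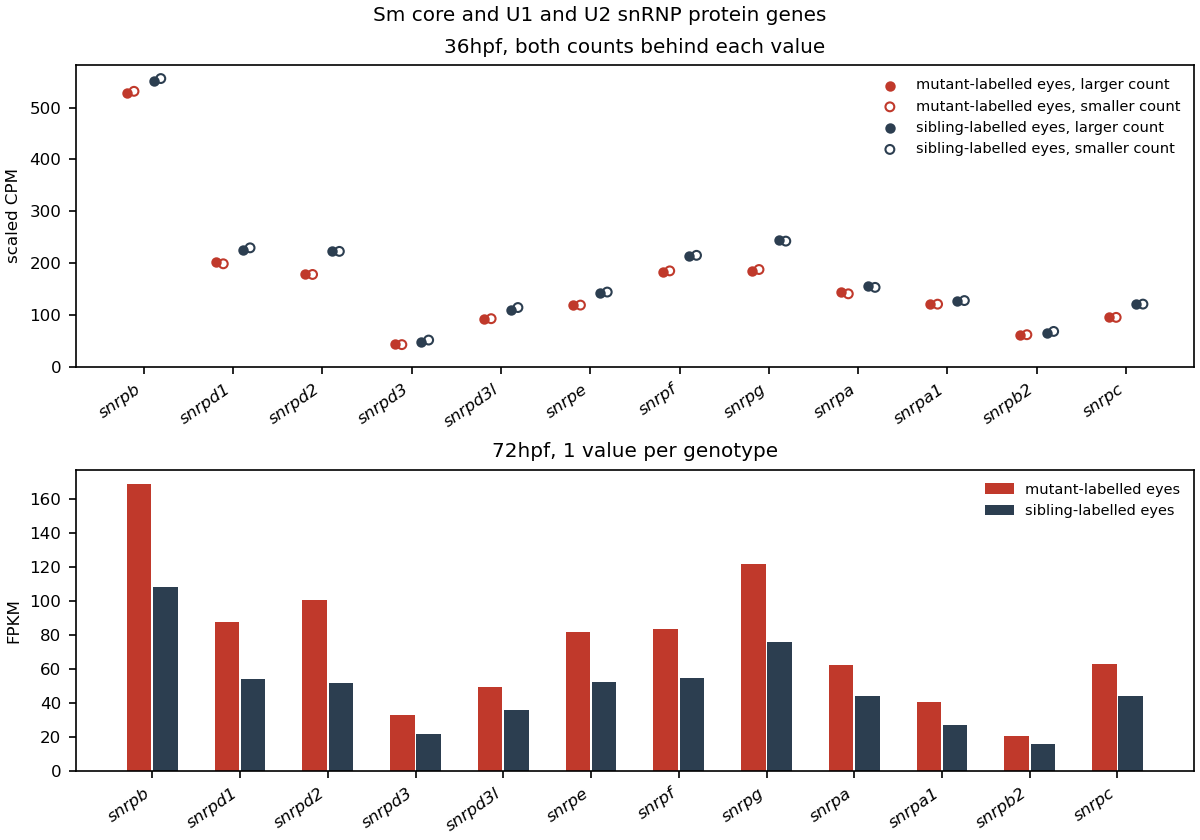
Levels of the 8 Sm core genes and 4 U1 and U2 snRNP protein genes (x axis), with scaled CPM at 36hpf on top (filled and open points are the larger and smaller count) and FPKM at 72hpf below (bars from 0, 1 value per genotype). Mutant-labelled eyes are red and sibling-labelled eyes dark blue. The red points lie below the dark blue ones of the same gene at 36hpf, and every red bar is the taller of its pair at 72hpf, as for *snrpd2* at 101 against 51.7 FPKM.

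The genes for proteins particular to the U1 and U2 snRNPs, which recognise the start of the intron and its branch point, showed the same pattern. In mutant-labelled eyes all 4 were lower at the earlier stage (median -0.12, background 49.0%) and higher at the later one (median 0.49, background 51.9%). *snrpc*, a U1 protein that touches the 5′ splice site, had 95.4 and 95.2 CPM in mutant-labelled eyes at 36hpf, against 120 and 121 CPM in sibling-labelled eyes (fold-change -0.34). At 72hpf it had 62.9 FPKM in mutant-labelled and 44.0 FPKM in sibling-labelled eyes (0.51). *snrpa*, which binds a loop of U1 RNA, had 62.2 FPKM in mutant-labelled and 44.4 FPKM in sibling-labelled eyes (0.48), and *snrpa1* and *snrpb2*, partners on U2 RNA, had differences of 0.57 and 0.38. At 36hpf *snrpa*, *snrpa1* and *snrpb2* were closer to 0, at -0.11, -0.06 and -0.12.

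The SF3a and SF3b subunits, which clamp the U2 snRNP onto the branch point, were all higher in mutant-labelled eyes at 72hpf (9 of 9, background 51.9%, median 0.30). Of them, 3 reached 0.5 (background 16.5% with FPKM), but 1 under TPM, where the share of all genes is not given here. These 3 were *sf3a2* (46.8 FPKM in mutant-labelled and 31.4 FPKM in sibling-labelled eyes, 0.56), *sf3b5* (53.4 and 36.0 FPKM, 0.56) and *sf3b6* (56.9 and 38.4 FPKM, 0.56). *sf3b1*, the largest subunit and the one that holds the branch point, had the smallest difference of the class, 0.21, with 122 FPKM in mutant-labelled and 105 FPKM in sibling-labelled eyes. At 36hpf the class was split, 4 above 0 (background 51.0%) and 5 below (background 49.0%). Its median of -0.03 turned to 0.002 when the reads were scaled by their total. There *sf3b1* was the highest of the class, with 483 and 478 CPM in mutant-labelled eyes, against 414 and 410 in sibling-labelled eyes. Its fold-change of 0.22 (0.20 to 0.24) was the third highest of all 68 genes. *sf3b5* was the lowest of the class at 36hpf, at -0.26, so the subunits did not move together at that stage.

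The tri-snRNP genes with *prpf* symbols include 5 whose human counterparts are linked to retinitis pigmentosa. At 72hpf these 5 were all higher in mutant-labelled eyes (background 51.9%). *prpf31*, a scaffold of the U4/U6 particle, had 22.1 FPKM in mutant-labelled and 15.9 FPKM in sibling-labelled eyes, a difference of 0.45. *prpf4* and *prpf3*, also of U4/U6, had 14.5 and 18.4 FPKM in mutant-labelled eyes, against 10.7 and 14.3 FPKM in sibling-labelled eyes (0.40 and 0.34). *prpf6*, which bridges U5 and U4/U6, had 36.7 FPKM in mutant-labelled and 29.5 FPKM in sibling-labelled eyes (0.31), at a locus that 7 gene IDs share. *prpf8*, the protein at the heart of the spliceosome, had the smallest difference of the 5, at 0.18 with 73.1 FPKM in mutant-labelled and 64.5 FPKM in sibling-labelled eyes. *prpf18*, a factor of the second step of splicing, was at 11.3 FPKM in mutant-labelled and 11.8 FPKM in sibling-labelled eyes (-0.07), the only one of the 6 below 0. At 36hpf the class lay around 0, with 4 of 6 above it (background 51.0%). Its median of 0.02 became -0.01 with the smaller counts alone. *prpf8* had 680 and 679 CPM in mutant-labelled eyes, against 635 and 619 in sibling-labelled eyes (fold-change 0.11), and *prpf6* had a fold-change of 0.13. *prpf3*, *prpf31* and *prpf4* were at -0.10, -0.07 and 0.03.

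The other *prpf* genes had the lowest class median at 72hpf, 0.11, with 4 of 6 above 0 (background 51.9%). *prpf38b* was at 20.5 FPKM in mutant-labelled and 22.2 FPKM in sibling-labelled eyes (-0.11), after a fold-change of -0.28 at 36hpf. *prpf4ba* and *prpf4bb*, kinases of splicing proteins, had differences of 0.09 and -0.07. *prpf39*, a U1-associated factor, was higher at both stages (0.13 at 36hpf, 0.22 at 72hpf).

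All 16 SR protein genes on single rows were above 0 at 72hpf (background 51.9%), with a median of 0.28. However, 1 of them turned below 0 when FPKM was scaled to its total, by TMM or to the median of all genes. That gene was *srsf6b*, at 132.1 FPKM in mutant-labelled and 131.6 FPKM in sibling-labelled eyes (0.01). *srsf10b*, of a family whose proteins can repress splicing, was the only SR gene past 0.5, with 24.8 FPKM in mutant-labelled and 15.5 FPKM in sibling-labelled eyes (0.65), at a locus shared by 5 gene IDs. *srsf7a* followed at 153 FPKM in mutant-labelled and 110 FPKM in sibling-labelled eyes (0.47). The most abundant SR genes, *srsf3b*, *srsf5b* and *srsf5a*, had 309, 284 and 283 FPKM in mutant-labelled eyes, against 237, 221 and 218 FPKM in sibling-labelled eyes. Their differences of 0.38, 0.36 and 0.38 lay close together.

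At 36hpf the SR genes held both ends of the range of all 68 genes. *srsf2b*, an SR protein that binds exonic enhancers, had 49.9 and 50.05 CPM in mutant-labelled eyes, against 77.3 and 76.3 in sibling-labelled eyes. Its fold-change of -0.62 (-0.67 to -0.57) was the lowest, and it was the 1 gene past -0.5. At 72hpf the same gene was at 22.9 FPKM in mutant-labelled and 21.0 FPKM in sibling-labelled eyes (0.12), so it did not stand apart there. *srsf7b* had the highest fold-change, 0.32 (0.12 to 0.53), but rested on 498 reads in mutant-labelled and 325 reads in sibling-labelled eyes. *srsf5a* came next, with 562 and 552 CPM in mutant-labelled eyes, against 463 and 460 in sibling-labelled eyes (0.27, 0.26 to 0.29). *srsf1a*, a general splicing activator, had 592 and 594 CPM in mutant-labelled eyes, against 755 and 764 in sibling-labelled eyes, a fold-change of -0.36. In all, 4 of the 16 SR genes were above 0 (background 51.0%) and 12 below (background 49.0%) at 36hpf, with a median of -0.09.

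The hnRNPs of the A/B and D types bind exonic and intronic silencers and, for the D type, AU-rich sequences that govern mRNA decay. All 8 on single rows were below 0 at 36hpf (background 49.0%), with a median of -0.25. *hnrnpaba*, with the most reads of all 68 genes, had 1886 and 1875 CPM in mutant-labelled eyes, against 2235 and 2235 in sibling-labelled eyes (-0.25), and its copy *hnrnpabb* had the same fold-change of -0.25. *hnrnpa0a* and *hnrnpa1a* were at -0.35 and -0.31, while *hnrnpa0b* and *hnrnpa1b* were at -0.17 and -0.08. At 72hpf 6 of the 8 were above 0 (background 51.9%), led by *hnrnpaba* at 0.56, and the class median was 0.26. The other 2 were the genes furthest below 0 among those of at least 5 FPKM. *hnrnpa3* was at 7.29 FPKM in mutant-labelled and 11.8 FPKM in sibling-labelled eyes (-0.63), and *hnrnpd* was at 40.3 and 49.9 FPKM (-0.30). Both were below 0 at 36hpf too, *hnrnpa3* at -0.31 (-0.45 to -0.17) and *hnrnpd* at -0.21. The first rested on 826 reads in mutant-labelled and 834 reads in sibling-labelled eyes.

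Of the 11 other hnRNP genes, 9 were below 0 at 36hpf (median -0.16, background 49.0%) and 9 above 0 at 72hpf (median 0.30, background 51.9%). *hnrnpub*, which encodes the scaffold attachment protein hnRNP U, had 616 and 623 CPM in mutant-labelled eyes at 36hpf, against 820 and 823 in sibling-labelled eyes. Its fold-change of -0.41 was the lowest of the 68 after *srsf2b*. At 72hpf it was at 121 FPKM in mutant-labelled and 96.8 FPKM in sibling-labelled eyes (0.32), so its order between libraries was reversed. *hnrnpc*, which binds runs of U, had a fold-change of -0.35 at 36hpf and, at 72hpf, 76.5 FPKM in mutant-labelled against 54.0 FPKM in sibling-labelled eyes (0.50), and *hnrnph1l*, of a family that binds runs of G, was at -0.34 and 0.23. *hnrnpr* had the highest difference of the group at 72hpf, 0.52, at a locus that 20 gene IDs share. *hnrnpul1*, related to hnRNP U, was above 0 at both stages (0.15 and 0.33). *hnrnpk*, which binds runs of C, and *hnrnpm* were below 0 at 36hpf (-0.24 and -0.16) and above it at 72hpf (0.23 and 0.35). *hnrnph3*, named after its value was seen because it is 1 of the 2 genes past -0.5 at 72hpf, had a difference of -0.84 there, from the low levels given above. Its fold-change at 36hpf was 0.03 (-0.22 to 0.27), from 307 reads in mutant-labelled and 246 reads in sibling-labelled eyes.

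The symbols on several rows gave values that could not be matched between the stages. *hnrnpa0l* had a row with 126712 reads in mutant-labelled and 115231 in sibling-labelled eyes at 36hpf (-0.16), and a lesser row with 1704 and 1731 reads (-0.32). At 72hpf its main entry, ENSDARG00000036161 on chromosome 14 (38509117 to 38510619, GRCz10), was at 508 FPKM in mutant-labelled and 286 FPKM in sibling-labelled eyes. That difference of 0.83 would be exceeded among the 68 genes by *snrpd2* alone, and the entry lies 1264 bases from *hnrnpa0b*. *srsf3a* had a main row of 20989 reads in mutant-labelled and 19353 reads in sibling-labelled eyes (-0.18) and, at 72hpf, 81.3 FPKM in mutant-labelled and 59.8 FPKM in sibling-labelled eyes (0.44). It had 2 further IDs at the same locus that are listed at 0 in both libraries.

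Many of these genes exist in zebrafish as a and b copies, of which 12 pairs were members and 11 had values. The more abundant copy at 72hpf was the same in both libraries for 10 of the 11, the exception being *prpf4ba* and *prpf4bb* at levels close to each other. The ratio of *srsf2a* to *srsf2b* was 9.25 in mutant-labelled and 8.21 in sibling-labelled eyes, and that of *srsf5a* to *srsf5b* was 0.998 in mutant-labelled and 0.985 in sibling-labelled eyes. Between copies, the log2 changes differed by a median of 0.18 at either stage. The widest gaps were -0.57 for *srsf7a* minus *srsf7b* at 36hpf, of which the second copy had few reads, and 0.53 for *srsf2a* (fold-change -0.09) minus *srsf2b*. At 72hpf the widest was -0.42 for *srsf10a* minus *srsf10b*. Reads from near-identical copies may have been split between them in counting, so values of single copies are less certain than those of the pair.

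Across both stages, 48 of the 68 genes were below 0 at 36hpf and above 0 at 72hpf, 13 were above 0 at both, 5 were below 0 at both and 2 (*prpf18* and *hnrnph3*) were above 0 and then below. Over all 15441 genes kept at both stages on 1 row, these numbers were 3684, 4360, 4209 and 3188. The 5 below 0 at both were *hnrnpa3*, *hnrnpd*, *hnrnph1*, *prpf38b* and *prpf4bb*. Under another scaling or with 1 of the counts alone, 7 genes near 0 at 36hpf (*prpf18* and *hnrnph1* among them) and 2 at 72hpf changed sign. As a description over 68 genes of the same libraries, Pearson's correlation of the changes at both stages was -0.11 and Spearman's -0.13, where it was 0.18 for each measure over 15441 genes. The position of a gene among the members at 36hpf thus said little of its position at 72hpf. The stages were sequenced, mapped and quantified in different ways. In the difference in sign, age and these differences in method cannot be told apart with these samples.

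**Figure D4:**
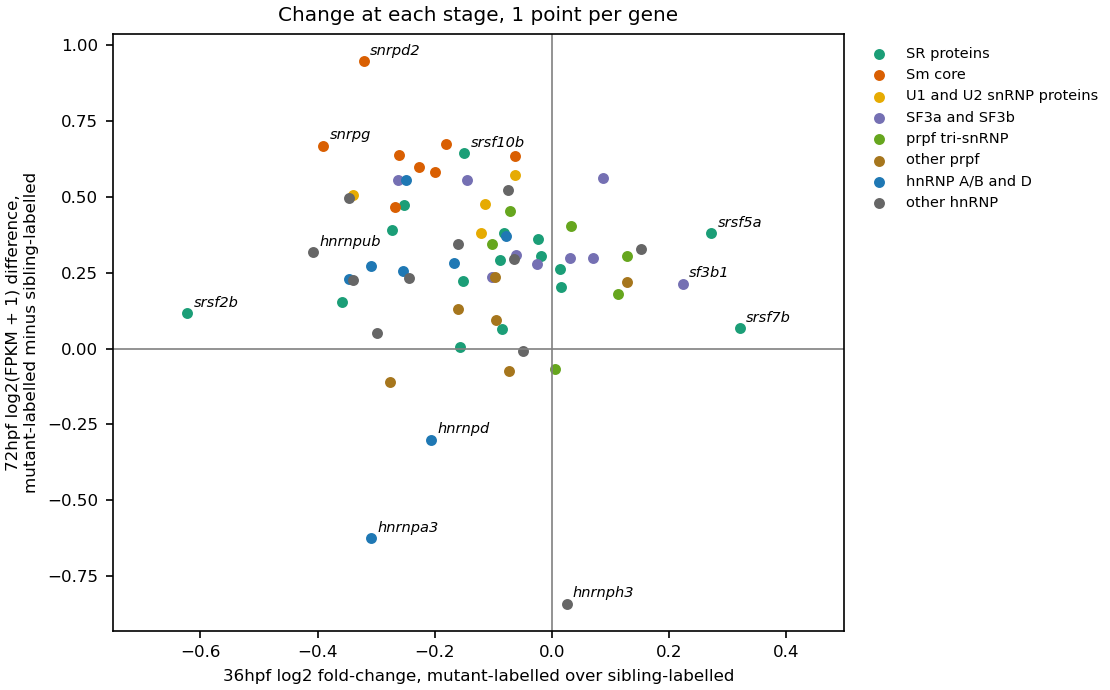
Log2 fold-change at 36hpf (x axis) against log2(FPKM + 1) difference at 72hpf (y axis), mutant-labelled over sibling-labelled eyes in both, 1 point per gene (n = 68) coloured by class, with selected genes named. The field left of and above 0 holds 48 genes, among them all 8 Sm core genes, and *hnrnpa3*, *hnrnpd* and *hnrnph3* are the lowest at 72hpf.

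Other genes of the splicing machinery, taken from lists of textbook components, had medians on the same side. Of 73 other spliceosome genes measured at 72hpf, 67 were above 0 (background 51.9%), with a median of 0.26. Of the 73, 9 were at 0.5 or more (background 16.5%) and 1 at -0.5 or less (background 20.3%). At 36hpf 46 of 74 were below 0 (background 49.0%), with a median of -0.05. *lsm8* and *lsm7*, subunits of the ring on U6 RNA, had 55.2 against 28.5 FPKM (0.93) and 96.8 against 62.3 FPKM (0.63) in mutant-labelled against sibling-labelled eyes. They were the 2 highest of the list at 72hpf. The other measured subunits of that ring, *lsm5*, *lsm6* and *lsm4*, were at 0.47, 0.46 and 0.006. The exception past -0.5 was *rbm25a*, a splicing regulator, at 24.0 FPKM in mutant-labelled and 42.8 FPKM in sibling-labelled eyes (-0.81), although it had 3477 and 1718 reads at 36hpf (0.72). Genes that assemble snRNPs with the SMN complex had medians of -0.11 at 36hpf (12 of 13 below 0, background 49.0%) and 0.17 at 72hpf (11 of 13 above 0, background 51.9%). Among them *snupn*, which carries snRNPs into the nucleus, was at 12.8 FPKM in mutant-labelled and 7.35 FPKM in sibling-labelled eyes (0.72). The 2 below 0 at 72hpf were *tgs1* (-0.24) and *coil* (-0.08). Exon junction and SR-related genes had medians of -0.12 (11 of 16 below 0, background 49.0%) and 0.11 (13 of 16 above 0, background 51.9%). Further RNA-binding genes of the FET and related families had -0.18 (24 of 26 below 0, background 49.0%) and 0.26 (19 of 26 above 0, background 51.9%). The other 7 of these 26 were below 0 at 72hpf, with *pcbp3* (-1.02) and *raly* (-0.66) the lowest.

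Kinases and tissue-specific regulators of splicing had medians below 0 at both stages, but at 72hpf as many of their genes were above 0 as below. The 10 kinases of SR proteins had medians of -0.16 at 36hpf (4 above 0, 6 below) and -0.16 at 72hpf (5 above, 5 below). *srpk2* had 85 reads in mutant-labelled and 164 reads in sibling-labelled eyes at 36hpf (-1.24) and 4.40 against 9.73 FPKM at 72hpf (-0.99). Over 36 tissue-specific regulators the medians were -0.19 (14 above 0, 22 below) and -0.03 (18 above, 18 below). Of all genes kept, 51.0% were above 0 at 36hpf and 51.9% at 72hpf. Single regulators moved far more than any of the 68. At 36hpf 4 of the 36 regulators reached 0.5 (background 19.9%) and 14 reached -0.5 (background 14.8%). At 72hpf these were 5 (background 16.5%) and 13 (background 20.3%). Most of the regulators past either limit were thus lower in mutant-labelled eyes. *esrp2* and *esrp1*, regulators of epithelial splicing, had 1881 and 2757 reads in mutant-labelled eyes at 36hpf, against 403 and 665 reads in sibling-labelled eyes (1.93 and 1.76). The neuronal *elavl4* had 971 reads in mutant-labelled and 2673 reads in sibling-labelled eyes (-1.75). At 72hpf *rbfox1*, a regulator in neurons and muscle, was at 19.6 FPKM in mutant-labelled and 66.8 FPKM in sibling-labelled eyes (-1.72), and *ptbp1b*, a repressor of neuronal exons, at 46.5 and 23.8 FPKM (0.94). The muscle regulator *rbfox1l* had 8.01 FPKM in mutant-labelled and 0.44 FPKM in sibling-labelled eyes (2.65), after 11 and 32 reads at 36hpf (-1.78). Epidermis markers were at a median of 1.92 at 36hpf beside the *esrp* genes (15 of 15 above 0), and skeletal muscle markers at 2.03 at 72hpf beside *rbfox1l* (15 of 17 above 0). Neuron markers were at -1.05 at 36hpf (15 of 16 below 0) and -0.77 at 72hpf (11 of 15 below 0). The neuron markers include *elavl3* and *elavl4*, which are also counted among the regulators, so these lists are not independent. The part of any of these tissues in the regulators' values was not tested.

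A list of proliferation genes moved in the same direction as the 68 genes at both stages. At 72hpf all 20 measured were above 0 (background 51.9%), with a median of 0.79 and a range of 0.37 to 0.97. Their summed level was 1570 FPKM in mutant-labelled against 853 FPKM in sibling-labelled eyes. At 36hpf 16 of 20 were below 0 (background 49.0%), with a median of -0.08. Retinal progenitor markers were near 0 in the median at both stages (-0.09 and 0.10). Housekeeping genes had a median of 0.01 over 18 genes at 36hpf and 0.33 over 17 genes at 72hpf. The second median is close to the 0.30 of the splicing and hnRNP genes, but the housekeeping genes were more widely spread. Their quartiles at 72hpf were 0.06 and 0.81, against 0.21 and 0.48 for the splicing and hnRNP genes. Photoreceptor genes summed to 1278 FPKM in mutant-labelled and 16558 FPKM in sibling-labelled eyes at 72hpf, or 0.23% and 3.13% of all FPKM. The part of cell division, of the lower level of photoreceptor transcripts or of depth in the values of the 68 genes was not tested.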

How the data were processed

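Eyes of 1 *tet2*-/-;*tet3*-/- sample and 1 sibling sample were measured at each stage. For 36hpf the authors mapped reads to GRCz10 with CLC Genomics Workbench. Their deposited values, headed FPKM, are expected counts in form (each averages 2 whole read counts), and the deposited log2 columns hold the mean log2 of the same counts. For 72hpf the authors deposited FPKM, made with TopHat (GRCz10) and the Cufflinks package. The submitters' processing notes also name FastQC, and for the tools at 72hpf versions are not given in the sources used. A further table, with the authors' log2 fold changes at 72hpf, was not used.

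The 2 counts were summed, with no rounding, and both were recovered from sum and mean log2 for 30902 genes in mutant-labelled and 30950 genes in sibling-labelled eyes, all 68 members included. Sums were scaled by TMM (edgeR 4.0.16, R 4.3.3) to effective sizes of 107941030 and 88028822 reads, and fold-changes took 0.5 added reads over 21876 genes with at least 20 reads. At 72hpf the log2(FPKM + 1) difference was taken over the 17307 genes that reached an FPKM of 1 in a library. Clopper-Pearson 95% intervals cover counting error only, since they come from the summed reads of 1 sample per genotype. They take no account of duplicate reads, as reads carry no molecular identifiers. No test was run, as the labels give 1 sample per genotype and stage. Steps were tested on simulated data.

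The members and lists were chosen with earlier results of these data known. Members were named for the 10 highest and 10 lowest changes per stage (at least 100 reads or an FPKM of 5), the 10 highest levels, a change of 1 or more, a link to retinitis pigmentosa, or as pairs of copies, and others, chosen after their values were seen, to complete a class. From each other list at most the 2 highest and 2 lowest genes per stage were named, with some exceptions. *gnat1*, *tnnc2* and *myh6* were named as examples of genes with few reads, and *elavl3* as a gene on more than 1 list. *lsm4*, *lsm5* and *lsm6* were named to complete the measured subunits of the ring on U6 RNA. Loci shared with other gene IDs in the 72hpf table (14 of 68 members) were taken as the table gives them. Alternatives were other scalings (DESeq2 1.42.0, total reads, TPM, TMM on FPKM, the median of all genes), other minimums and added values, each count alone, symbols in any letter case and rows of 1 symbol summed (the last chosen after seeing the data). Sequences were not used here.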

Additional observations from a re-analysis of the deposited data

Results flagged for a closer look

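Several values had opposite signs at the 2 stages, with 1 sample per genotype at each, and none of these differences between stages was tested. The median log2 change of the 68 splicing factor and hnRNP genes was -0.11 at 36hpf and 0.30 at 72hpf. That of the 8 Sm core genes was -0.24 and 0.64, with every gene below 0 at 36hpf and above 0 at 72hpf, and that of the 4 U1 and U2 snRNP protein genes was -0.12 and 0.49, again for every gene. Outside these genes, *rbfox1l* was at -1.78 and then 2.65, the first from 11 reads in mutant-labelled and 32 reads in sibling-labelled eyes, and *rbm25a* was at 0.72 and then -0.81. No group held enough samples to look for a sample that stands apart.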

How the results depend on the processing

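The members' median log2 change stayed below 0 at 36hpf (-0.12 to -0.08) and above 0 at 72hpf (0.24 to 0.31) under every alternative run, and the Sm core genes stayed all below 0 (median -0.27 to -0.22) and all above 0 (median 0.58 to 0.64). With TPM in place of FPKM, 59 of the 68 members were above 0 at 72hpf, where 48.2% of 18979 genes were. Members at 0.5 or more then numbered 10 of 68, not 15. The share of all genes at 0.5 or more under TPM is not given here. The 10 thus cannot be set against the background of 16.5%, which was taken with FPKM. With a minimum FPKM of 5, members at -0.5 or less numbered 1, because the minimum leaves out *hnrnph3*. Signs changed under an alternative for 7 members at 36hpf and 2 at 72hpf (*hnrnpua* and *srsf6b*), the furthest 0.05 from 0 as reported, and the medians of the SF3a and SF3b and the tri-snRNP genes at 36hpf also crossed 0. At 72hpf *hnrnph3* passed -1 with 0.1 FPKM added (-1.13) and under TPM (-1.02), and under TPM 1 SF3a or SF3b gene, not 3, reached 0.5. No paired analysis was possible because each genotype has 1 sample per stage, and for the same reason no sample could be left out. Depth limits *srsf7b*, *hnrnpa3* and *hnrnph3* most, and at 72hpf no counting error could be given.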
